A study of Mus musculus with 18 samples.

Results

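Central regulatory T cells of peripheral lymph node were compared with those of spleen in 6 of the 18 RNA libraries of the series: all libraries labelled Id3+ cTR, 3 from lymph node and 3 from spleen. They come from littermate mice 84, 86 and 87, each of which gave 1 library of each tissue, on the C57BL/6 background, of the genotype Id3-GFP x Foxp3-mRFP (green and red fluorescent reporters of the named genes). Central regulatory T cells (cTR) were sorted as CD4+, Foxp3-reporter-positive, Id3-reporter-positive and CD44-low cells with the surface phenotype of central cells, 500 cells to a library. No treatment is labelled, and all groups carry both reporters. The other 12 libraries hold effector regulatory T cells (eTR) of the same mice and tissues, with the Id3 reporter (Id3+ eTR) or without it (Id3- eTR). Every gene with enough counts was a member of the comparison: 12445 of the 37991 in the count table. Since a library is a fixed number of sorted cells, a gene with fewer reads may stand for fewer cells that express it or for less RNA per cell, and these cannot be told apart.

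Regulatory T cells depend on the transcription factor Foxp3 and restrain other immune cells. Central ones resemble naive T cells: the chemokine receptor Ccr7 helps them enter lymph nodes through high endothelial venules, and S1pr1, induced by Klf2, lets them leave. The spleen has no such venules, and cells enter it from the blood. Id3 is an inhibitor of the E protein transcription factors.

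At this depth 1 gene passed the test between the tissues, Apol9a, which was higher in lymph node. Apol9a and its neighbour Apol9b belong to the apolipoprotein L family and are known to be induced by interferon. Apol9a and Apol9b are near copies, so their reads are shown here with what separates the copies. In the RefSeq promoter table (GRCm38.p6), the bases before the transcription start of Apol9a are chr15:77411081-77411330 (minus strand, intergenic, up to the gene's first base at 77411080). Those of Apol9b are chr15:77728822-77729046 (plus strand, intergenic, up to the gene's first base at 77729047). Capitals mark each match to GAAANNGAAA, read on either strand, the core of the element that interferon-activated factors are known to bind.
Apol9a: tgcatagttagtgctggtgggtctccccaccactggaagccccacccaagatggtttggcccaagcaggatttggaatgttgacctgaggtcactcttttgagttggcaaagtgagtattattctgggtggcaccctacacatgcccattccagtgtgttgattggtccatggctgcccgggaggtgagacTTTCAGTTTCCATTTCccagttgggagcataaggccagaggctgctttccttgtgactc
Apol9b: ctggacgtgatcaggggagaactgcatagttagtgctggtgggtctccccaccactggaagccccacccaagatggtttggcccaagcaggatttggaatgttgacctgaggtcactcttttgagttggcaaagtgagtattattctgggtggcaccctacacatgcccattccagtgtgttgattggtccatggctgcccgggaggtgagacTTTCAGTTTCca
The windows share an unbroken run of 203 bases, up to the end of the Apol9b window. The Apol9a window holds 2 overlapping matches, both on the opposite strand (TTTCAGTTTC and TTTCCATTTC). The Apol9b window holds TTTCAGTTTC and ends inside the stretch where Apol9a has its second match. The Apol9b window was cut at the gene's first base, to 225 bases beside 250 for Apol9a, so the numbers of matches cannot be compared. Over 300-base windows of 27025 genes, 3.49% held a match on either strand, and so did 13 of the 21 interferon response genes matched to the table. A match is a run of letters and not a measured binding site. The transcripts are close to identical too: Apol9a-201 (1530 bases) and Apol9b-204 (1529 bases) in the GENCODE M21 annotation match at 98.5% of the aligned bases. Of the 50-base words of Apol9a-201, 57.5% also occur in Apol9b-204, and no source used here gives how the authors' counting divided such reads.

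Apol9a was measured at 71.9, 49.9 and 63.2 CPM (counts scaled by library total) in lymph node cTR of mice 84, 86 and 87. In spleen cTR it was at 13, 14 and 16.6 CPM in the same order. Each lymph node library lay above each spleen library, as for 7.18% of all genes, with means of 61.7 ± 11.1 and 14.5 ± 1.89 CPM (SD, n = 3). The log2 fold change was 2.08 (SE 0.28; edgeR quasi-likelihood test, adjusted p = 0.0206). It is 1 of 12445 genes called at an adjusted p under 0.05 (0.00804%), and 967 genes (7.77%) had an unadjusted p under 0.05. Below, a gene is called when it passed in this edgeR fit, unless another tool or fit is named. With the mouse as a block in the fit, 2 genes were called, Apol9a (adjusted p = 0.0265) and Cdca7l.
Apol9a kept its direction in every alternative, with log2 fold changes from 1.96 to 2.22, but its call is not firm. EdgeR still called it with RLE scaling, without a filter, with thinned counts, and in the unblocked fit of the 6 libraries (adjusted p = 0.0246). The call of Apol9a also held without spleen mouse 86 (edgeR adjusted p = 0.0376) and without lymph node mouse 86 (0.0316), and it ended in the runs that follow. In edgeR its adjusted p was 0.147 without spleen mouse 84, 0.109 without spleen mouse 87, 0.0862 without lymph node mouse 84 and 0.119 without lymph node mouse 87. It was 0.276 without 3 libraries that stand apart (spleen cTR of mice 84 and 87 by their low totals, and spleen Id3+ eTR of mouse 84 by its distance from its group), which leaves 1 spleen cTR library, assumed to vary like the other groups. It was 0.116 in the blocked fit of the 6 libraries alone and 0.248 by limma-voom.
Apol9b was at 14.4, 26.8 and 13.8 CPM in lymph node and 3.25, 0 and 3.08 CPM in spleen. The groups did not overlap, again as for 7.18% of all genes, at a log2 fold change of 3.22 (SE 0.72). The gene was not called (edgeR adjusted p = 0.245).

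The same gene separated the tissues in the effector populations. In Id3+ eTR, Apol9a was at 69.6 ± 9.04 CPM in lymph node and 15.3 ± 3.46 CPM in spleen (log2 2.18, edgeR adjusted p = 0.00169). In Id3- eTR it was at 67.9 ± 12.3 and 17.2 ± 6.95 CPM (log2 1.97, edgeR adjusted p = 0.00538). Subtracting the log2 tissue difference of Id3+ eTR from that of cTR left -0.09 (SE 0.40), and subtracting that of Id3- eTR left 0.11 (SE 0.39), neither called. These contrasts use other libraries of the same mice.

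No other interferon response gene was called between the tissues by edgeR. The 30 tested members of the interferon list had a median log2 fold change of 0.04, with 18 above 0 and 12 below, beside 0 over all genes tested. EdgeR called none, and DESeq2 called 1 of the 8 to which it gave an adjusted p, higher in spleen. In edgeR 3 of the 30 had an unadjusted p under 0.05, Ifi27l2a and Igtp among them. All 3 were higher in spleen, beside 4.45% of all genes. Irf7, a transcription factor of the interferon response, was at 212, 156 and 276 CPM in lymph node and 175, 162 and 192 CPM in spleen. Ifit1, an antiviral RNA-binding protein, was at 84.8, 87.3 and 194 CPM in lymph node and 41.0, 96.3 and 127 CPM in spleen. Both overlapped between the groups. Ifi27l2a had a log2 fold change of -0.45 (edgeR adjusted p = 0.504).

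**Figure D1:**
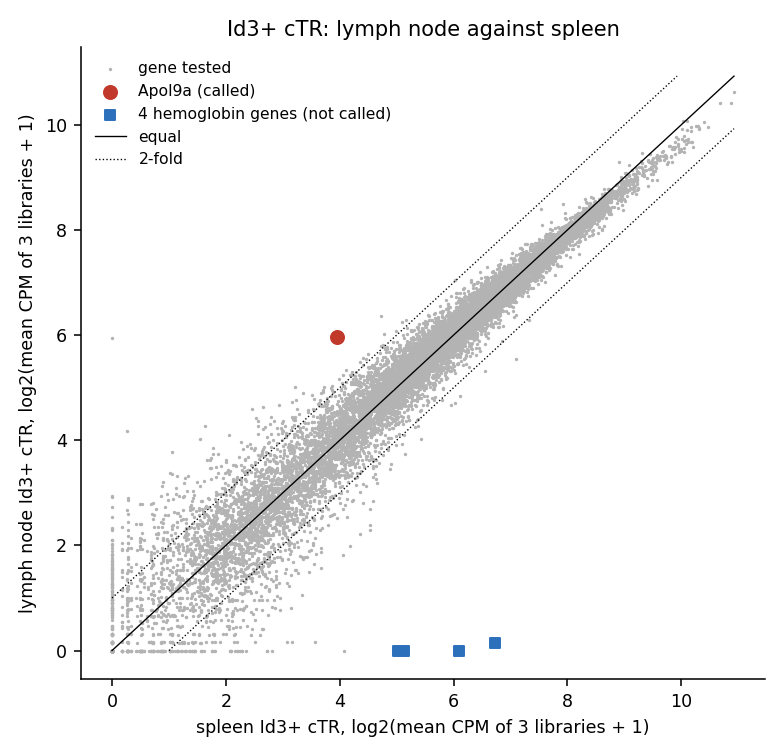
Mean level of each of the 12445 genes tested in spleen cTR (horizontal) and lymph node cTR (vertical), as log2(mean CPM of 3 libraries + 1). Nearly all well-expressed genes lie inside the dotted 2-fold lines, Apol9a lies above them at 61.7 against 14.5 CPM, and the 4 hemoglobin genes lie at the bottom right.

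The distance between cTR libraries of different tissues was set beside that between libraries of 1 tissue. Library distance was taken as the root mean square difference in log2 CPM over all genes tested. The 9 pairs between tissues had a mean distance of 0.840 ± 0.013 (SD), and the 6 pairs within a tissue 0.806 ± 0.030. The difference of 0.0337 gave p = 0.1 in an exact two-sided permutation test over the 20 labelings of the 6 libraries, and 0.1 is the smallest p that this design allows, so the test could not pass and does not show that the distances are alike. The labelings do not use the pairing by mouse. Within lymph node the mean distance was 0.780 and within spleen 0.833, so the spleen libraries lay about as far from each other as from lymph node. Pairs from the same mouse (mean 0.840) were no closer than pairs from different mice (0.841). Over all genes tested, mean distances in the effector cells and between cell states were larger. They were 0.931 between tissues in Id3+ eTR (pairs from 0.860 to 1.06) and 0.913 in Id3- eTR. Between cTR and Id3+ eTR they were 1.04 in spleen and 1.06 in lymph node, and between cTR and Id3- eTR 1.25 and 1.26. Over the 6987 genes with a mean log2 CPM of 5 or more, cTR and Id3- eTR were close. Between tissues the means there were 0.431 (same mouse) and 0.440 (different mice) in cTR and 0.447 in Id3- eTR, with overlapping ranges. In Id3+ eTR the mean was 0.509 (pairs from 0.409 to 0.727). Distances within a tissue are not given for effector cells.

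**Figure D2:**
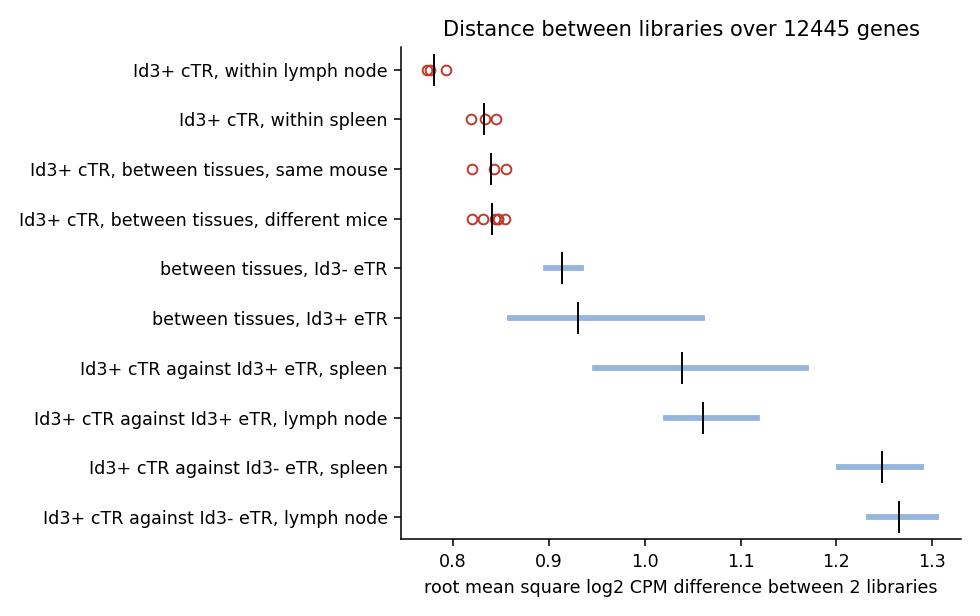
Root mean square log2 CPM difference between pairs of libraries. Circles are single pairs of Id3+ cTR libraries, blue bars run from the lowest to the highest of 9 pairs, and black marks are means. The cTR pairs lie between 0.773 and 0.855, below the means of all pairs that involve effector cells. Pairs within lymph node (0.773 to 0.793) lie below those that cross tissues (0.820 to 0.855). Pairs within spleen (0.819 to 0.845) overlap with those that cross tissues.

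Across genes, log2 CPM correlated at 0.934 to 0.939 (Pearson's r) between cTR libraries of different tissues. The range was 0.942 to 0.946 within lymph node and 0.936 to 0.940 within spleen. The group means correlated at 0.975 over 12445 genes, which are not independent replicates. The test also bounds the differences: the 95% interval of the log2 fold change lay inside a 2-fold difference for 6647 genes (53.4%). Among the 6987 genes whose mean log2 CPM was 5 or more it did so for 5986 (85.7%), and among the 2669 genes under 3 for 3. A lack of calls therefore bounds well-expressed genes and says little about rare transcripts. By contrast, 538 genes (4.32%) were called between cTR and Id3+ eTR in spleen and 705 (5.66%) in lymph node.

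The libraries differed in depth along with tissue. Lymph node cTR had 2593085 to 2988373 counts, and spleen cTR 1600782 (mouse 84), 2498377 (mouse 86) and 1684461 (mouse 87). In the spleen libraries of mice 84 and 87 the 124 highest-expressed genes lay a median of 0.35 log2 above the lymph node mean, and in that of mouse 86 0.08. Mitochondrial transcripts held 0.652%, 0.426% and 0.579% of counts in spleen cTR of mice 84, 86 and 87, and 0.403% ± 0.026 (SD, n = 3) in lymph node cTR. DESeq2 gave an adjusted p to 864 well-expressed genes after its independent filtering and called 108 of them (12.5%), 4 higher in lymph node (0.463%) and 104 higher in spleen (12%). Of these 104, 97 had their lowest spleen value in mouse 86, with medians of 0.49, 0.13 and 0.51 log2 above lymph node in mice 84, 86 and 87. Apol9a was not among the 864 genes, so DESeq2 could not call it there. Without independent filtering, a run added after seeing the data, DESeq2 called Apol9a. Limma-voom called 0 of 12445 genes (756 at an unadjusted p under 0.05). Without the spleen library of mouse 86, edgeR called 24 genes, 22 higher in spleen, and with an abundance-dependent scaling (an offset fitted along the expression level of each library) 2, both higher in lymph node. What part depth has in the differences of highly expressed genes was not tested.

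Of the 5 genes of the sort edgeR called none, and DESeq2 called 1 of the 3 with an adjusted p, higher in spleen. Foxp3 was at 268, 267 and 262 CPM in lymph node and 308, 263 and 293 CPM in spleen (log2 -0.11, SE 0.14). Id3 was at 282, 244 and 282 CPM in lymph node and 306, 254 and 274 CPM in spleen (log2 -0.04, SE 0.15). Both groups overlapped, as they did for Cd4 (log2 -0.19, SE 0.16) and Cd44 (log2 0.44, SE 0.26). Of the 18 tested regulatory T cell identity genes edgeR called none. DESeq2 called 1 of the 12 with an adjusted p, Tnfrsf18 (GITR, a costimulatory receptor), higher in spleen at an adjusted p of 0.0470. The median of the list was -0.10, but it was 0.04 within mouse 86 and 0.10 with the abundance-dependent scaling, so it has no stable direction. Il2ra, the high-affinity interleukin 2 receptor chain, was at 594, 667 and 707 CPM in lymph node and 704, 628 and 840 CPM in spleen. Ctla4, a coinhibitory receptor, was at 416, 408 and 421 CPM in lymph node and 525, 423 and 498 CPM in spleen. Their log2 fold changes of -0.14 and -0.21 became 0.08 and 0.002 with that scaling.

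The programme of resting and recirculating cells had 20 tested genes. EdgeR called none, and DESeq2 called 4 of the 12 with an adjusted p higher in spleen, Il7r, Ets1 and Cd27 among them. The median log2 fold change was -0.20, 16 members were below 0, and 7 had an unadjusted p under 0.05, all higher in spleen. Over all genes, 4.45% had an unadjusted p under 0.05 and were higher in spleen. With the abundance-dependent scaling the median of the list was -0.12, and at an unadjusted p under 0.05 there were 3 genes higher in spleen and 1 higher in lymph node. Klf3, a transcriptional repressor of the Klf family, was at 263, 241 and 230 CPM in lymph node and 404, 370 and 343 CPM in spleen. Each spleen library lay above each lymph node library, as for 7.38% of all genes, at a log2 fold change of -0.60 (SE 0.14; edgeR adjusted p = 0.266). Ccr7 was at 626, 548 and 590 CPM in lymph node and 633, 557 and 639 CPM in spleen, and S1pr1 at 616, 611 and 663 CPM against 752, 616 and 707 CPM. For Ccr7 the 95% interval of the log2 fold change ran from -0.37 to 0.26, and for S1pr1 from -0.40 to 0.13, and both turned above 0 with the abundance-dependent scaling (0.07 and 0.02). Klf2 was at 272, 312 and 337 CPM in lymph node and 386, 362 and 381 CPM in spleen (edgeR adjusted p = 0.670). Igfbp4, a marker of naive T cells, had its 3 lymph node values (380, 350 and 347 CPM) above its 3 spleen values (289, 226 and 212 CPM). This held for 7.18% of all genes, and the log2 fold change was 0.57 (SE 0.33; edgeR adjusted p = 0.715).

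Homing receptors and integrins had 26 tested genes and a median of -0.15, which was -0.07 with the abundance-dependent scaling. EdgeR called none, and DESeq2 called 2 of the 11 with an adjusted p, both higher in spleen. Selplg, the P-selectin ligand, was at 677, 662 and 674 CPM in lymph node and 868, 723 and 913 CPM in spleen (edgeR adjusted p = 0.40; DESeq2 0.0158). Its log2 fold change of -0.31 was -0.07 with the abundance-dependent scaling. Itga4, the alpha 4 integrin chain, was at 395, 399 and 412 CPM in lymph node and 536, 486 and 458 CPM in spleen. The effector list had 24 tested genes and none called by edgeR or DESeq2. Its median of -0.13 was -0.06 with the abundance-dependent scaling, and 0.02, 0.03 and -0.27 within mice 84, 86 and 87. Of these genes, 4 had an unadjusted p under 0.05, Icos, Ebi3, Maf and Il1rl1, all higher in lymph node, beside 3.32% of all genes. Icos, a costimulatory receptor of effector cells, was at 230, 256 and 221 CPM in lymph node and 187, 181 and 211 CPM in spleen (log2 0.29, SE 0.11; edgeR adjusted p = 0.504).

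**Figure D3:**
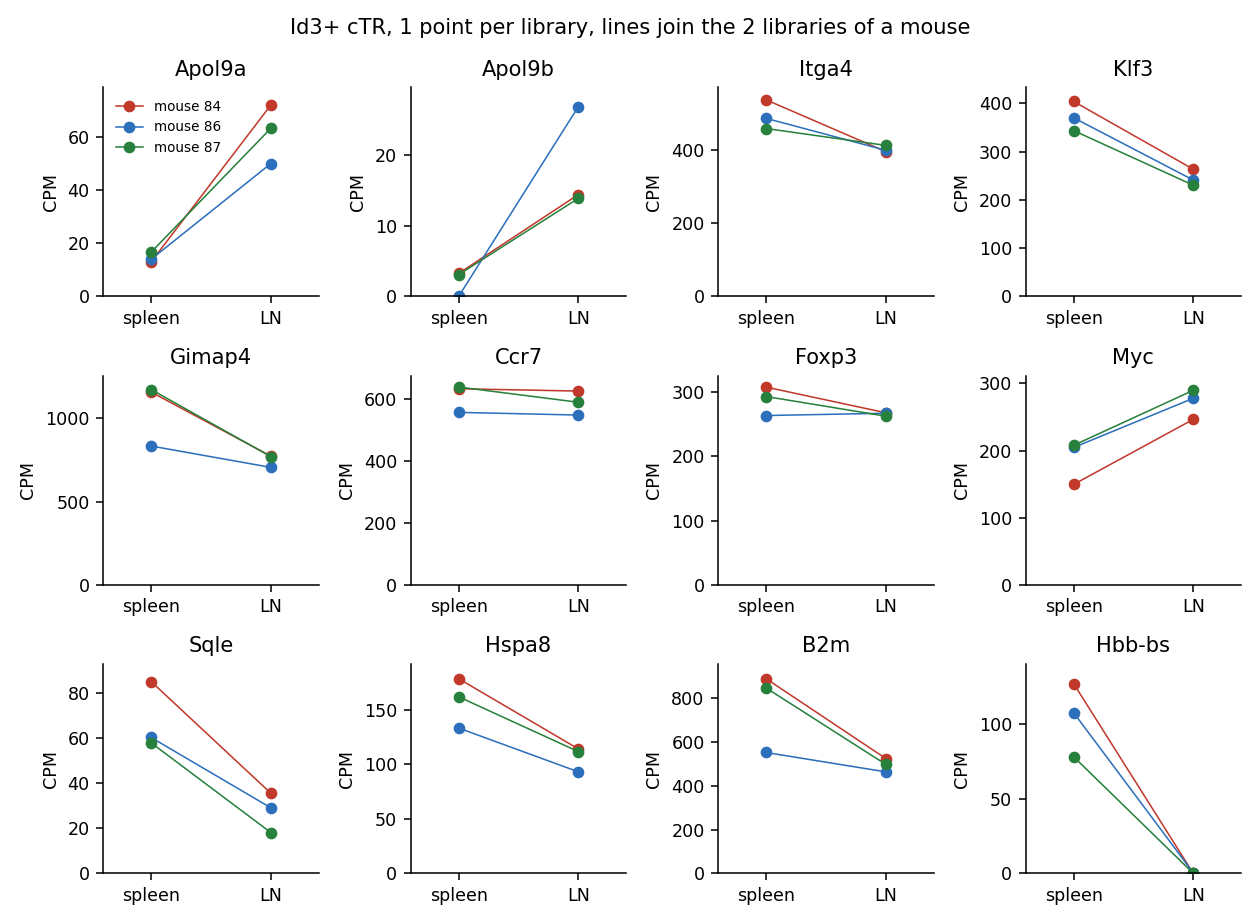
CPM of 12 genes in each Id3+ cTR library, with spleen at left and lymph node at right of each panel and a line joining the libraries of a mouse. Apol9a runs from 13 to 16.6 CPM in spleen and from 49.9 to 71.9 CPM in lymph node, while Ccr7 and Foxp3 overlap. The spleen values of B2m and Gimap4 are lowest in mouse 86.

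Sterol and lipid synthesis had the lowest median of the lists other than markers of other cells. Of its 20 tested genes, 17 were below 0 and the median log2 fold change was -0.67, with medians of -0.65, -0.58 and -0.62 within mice 84, 86 and 87. EdgeR called none, and DESeq2 gave an adjusted p to 0 of the 20, so it could not call any. In edgeR 7 had an unadjusted p under 0.05, all higher in spleen, beside 4.45% of all genes. Sqle, the squalene epoxidase, was at 35.6, 29.1 and 18.1 CPM in lymph node and 85.2, 60.3 and 58.0 CPM in spleen (log2 -1.29, SE 0.39; edgeR adjusted p = 0.40). Cyp51, the lanosterol demethylase, was at 54.5, 35.7 and 27.0 CPM in lymph node and 116, 115 and 46.2 CPM in spleen (log2 -1.25, SE 0.38; edgeR adjusted p = 0.413). The groups did not overlap for Sqle, with spleen above as for 7.38% of all genes, and overlapped for Cyp51. The median was -0.74 with the abundance-dependent scaling. Within mouse 86, whose libraries were the nearest in depth, it was as listed above.

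Heat shock genes were below 0 for 13 of 14 tested, with a median of -0.41, and within mice 84, 86 and 87 of -0.26, -0.38 and -0.34. EdgeR called none, and DESeq2 called Hsp90ab1 and Dnajb1, of 3 with an adjusted p, higher in spleen. In edgeR 6 of the 14 had an unadjusted p under 0.05, all higher in spleen, beside 4.45% of all genes. Hspa1b, an inducible chaperone, was at 21.2, 49.6 and 67.1 CPM in lymph node and 80.0, 133 and 195 CPM in spleen. Hspa8, its constitutive relative, was at 114, 93.3 and 112 CPM in lymph node and 179, 133 and 162 CPM in spleen (log2 -0.57, SE 0.15; edgeR adjusted p = 0.316). The groups did not overlap for either, with spleen above as for 7.38% of all genes. Immediate-early and dissociation genes, which are known to respond to tissue handling, had a median of -0.11 over 24 tested, which turned to 0.03 with the abundance-dependent scaling. Of these 24, 7 had an unadjusted p under 0.05 and were higher in spleen, beside 4.45% of all genes. Another 1, Rgs1, was higher in lymph node, beside 3.32% of all genes. Of the 14 with an adjusted p, DESeq2 called 4 higher in spleen (Fos, Junb, Klf6 and Ppp1r15a) and Rgs1 higher in lymph node. Their part in the heat shock values was not tested.

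The 8 Gimap GTPases, which are known for their role in lymphocyte survival, were all below 0, with a median of -0.35. Of these, 6 had an unadjusted p under 0.05, all higher in spleen, beside 4.45% of all genes, and none was called by edgeR. DESeq2 called Gimap3, Gimap4, Gimap6 and Gimap7, of 7 with an adjusted p, higher in spleen. Gimap4 was at 773, 705 and 770 CPM in lymph node and 1157, 833 and 1172 CPM in spleen (log2 -0.49, SE 0.13; edgeR adjusted p = 0.324; DESeq2 0.00366). As with the highest-expressed genes, the spleen library of mouse 86 was nearest to lymph node. The Gimap median was -0.22 within mouse 86 and -0.18 with the abundance-dependent scaling. The class I antigen presentation genes B2m, H2-K1 and H2-D1, chosen after their values were seen, had log2 fold changes of -0.62, -0.50 and -0.51, called by DESeq2 and not by edgeR. With the abundance-dependent scaling these were -0.40, -0.20 and -0.21. B2m was at 524, 463 and 497 CPM in lymph node and 889, 552 and 847 CPM in spleen.

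Genes of growth lay on the other side. Myc targets and ribosome biogenesis genes were above 0 for 21 of 25 tested, with a median of 0.18 and medians of 0.24, 0.22 and 0.23 within mice 84, 86 and 87. EdgeR called none, and DESeq2 gave an adjusted p to only 2 of the 25 and called neither. In edgeR 4 had an unadjusted p under 0.05, Myc, Srm, Odc1 and Gnl3, all higher in lymph node, beside 3.32% of all genes. Myc, the growth-promoting transcription factor, was at 246, 278 and 290 CPM in lymph node and 150, 205 and 208 CPM in spleen (log2 0.53, SE 0.15; edgeR adjusted p = 0.355). Gnl3, the nucleolar protein nucleostemin, was at 149, 152 and 170 CPM in lymph node and 119, 85.9 and 81.4 CPM in spleen (log2 0.72, SE 0.20; edgeR adjusted p = 0.355). The groups did not overlap for either, with lymph node above as for 7.18% of all genes. Egr2, induced by the T cell receptor, was at 21.2, 31.7 and 23.8 CPM in lymph node and 1.95, 4.79 and 17.3 CPM in spleen, and the 21 tested genes of its list had a median of -0.03, which turned to 0.13 with the abundance-dependent scaling. The 30 tested proliferation genes had a median of 0.43, and medians of 0.57, 0.13 and 0 within mice 84, 86 and 87. At an unadjusted p under 0.05, 2 were higher in lymph node, Mki67 and Rrm2, and 1 higher in spleen, Tk1. The shares over all genes were 3.32% and 4.45%. Mki67, a protein of dividing cells, was at 5.68, 7.28 and 2.13 CPM in lymph node and 0.65, 0 and 0 CPM in spleen.

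**Figure D4:**
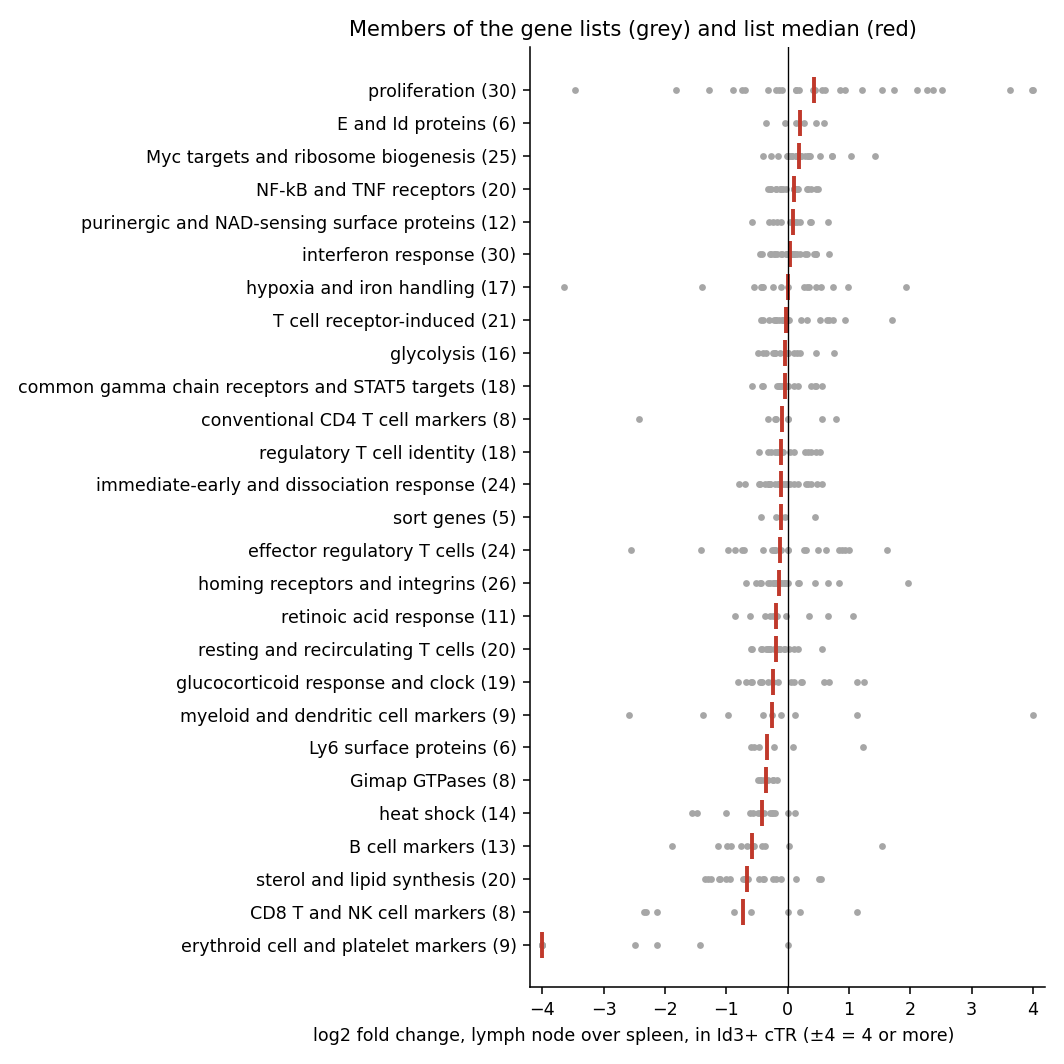
Log2 fold change (lymph node over spleen) in Id3+ cTR of the tested members of each gene list with more than 1 tested (grey) and the list median (red), with the number tested in brackets and values of 4 or more drawn at the edge. Sterol synthesis lies at -0.67 and Gimap GTPases at -0.35, and edgeR called no member of any list.

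Over the 28 lists, 398 of 449 genes were tested and none was called by edgeR or limma-voom. DESeq2 gave an adjusted p to 93 of them and called 25, 1 higher in lymph node (Rgs1) and 24 higher in spleen, beside the 12.5% it called of the 864 genes with an adjusted p. At an unadjusted p under 0.05 edgeR had 24 of the 398 higher in lymph node and 66 higher in spleen, beside 3.32% and 4.45% of all genes. The lists for glycolysis (median -0.04), NF-kB and TNF receptors (0.10), and common gamma chain receptors and STAT5 targets (-0.04) had medians near 0. The 5 genes of the sort, glucocorticoid response and clock (-0.25), retinoic acid response (-0.20), hypoxia and iron handling (0.00), purinergic and NAD-sensing surface proteins (0.08), Ly6 surface proteins (-0.35), E and Id proteins (0.20) and conventional CD4 T cell markers (-0.10) likewise had no gene called by edgeR. In these lists DESeq2 called Il2rg, Il7r, Ldha, Tsc22d3, Fth1, Ly6e, Tnfrsf18 and the 1 gene of the sort, all higher in spleen. With the abundance-dependent scaling the STAT5 and hypoxia lists turned to 0.01 and 0.02, and the Ly6 list moved to -0.20.

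Red cell transcripts separated the tissues by amount. The 4 hemoglobin genes summed to 1 count in the 3 lymph node cTR libraries and 1349 in the 3 spleen libraries, a ratio of 2021 in CPM (95% counting interval 362 to 79878, counting error only). In spleen they summed to 288, 247 and 178 CPM in mice 84, 86 and 87. Hbb-bs, an adult beta globin, was at 127, 108 and 78.3 CPM in spleen and at 0, 0.331 and 0 CPM in lymph node. The genes were not called in the fit of all libraries (Hbb-bs, edgeR adjusted p = 0.166), and all 4 were called in the edgeR fit of the 6 cTR libraries alone. With the mouse as a block in that fit 2 of the 4 were called, Hbb-bs and Hbb-bt. The other 12 libraries include spleen eTR, whose summed hemoglobin ran from 3.11 to 134 CPM. The erythroid and platelet list of 13 genes summed to 5.3 to 13.9 CPM in lymph node and 211 to 337 CPM in spleen, with 2 of 13 at 0 in all 6 libraries.
The 16 B cell markers found summed to 928 to 1168 CPM in lymph node and 1319 to 1693 CPM in spleen. Cd74, the invariant chain of class II molecules, was at 162, 172 and 221 CPM in lymph node and 242, 313 and 325 CPM in spleen (edgeR adjusted p = 0.266; DESeq2 0.00262). Myeloid and dendritic cell markers summed to 533 to 612 CPM in lymph node and 521 to 752 CPM in spleen, with 3 of 16 at 0 in all 6 libraries. CD8 and NK markers summed to 89.3 to 137 and 95.1 to 179 CPM, with 2 of 12 at 0 in all 6 libraries. Stromal and endothelial markers summed to 206 to 292 and 282 to 345 CPM. Of the 13 found, 9 were at 0 in all 6 libraries and only 1, Pecam1, had enough counts to be tested. Ncr1 of NK cells, Pdgfra of fibroblasts and Cdh5 of endothelium were at 0 in all 6 libraries. The part of such cells in the values of the other lists was not tested.

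Most genes called between the tissues in effector cells had smaller fold changes in central cells. Of the 36 genes called between the tissues in Id3+ eTR (0.289%), 30 had the same sign in cTR and 35 a smaller log2 fold change. Their median in the eTR direction was 0.22 in cTR beside 0.96 in Id3+ eTR. Of the 38 called in Id3- eTR (0.305%), 32 had the same sign in cTR and 36 were smaller, with medians of 0.29 and 1.80. The genes were chosen for their size in eTR, so a smaller value elsewhere carries no test. Of the same 6987 well-expressed genes, 48.1% had the same sign in cTR as in Id3+ eTR and 53.3% as in Id3- eTR.
The 11 genes called in both effector populations had the same sign in cTR. Klf3 was at a log2 fold change of -0.60 in cTR, and among effector cells at -0.90 with the Id3 reporter and -0.78 without it. Gimap7 was at -0.45, -0.95 and -0.97, Nrip1, a nuclear receptor corepressor, at -0.37, -0.95 and -1.06, and Icos at 0.29, 0.96 and 0.64 in the same order. Gcnt1, an O-glycan branching enzyme, was at 0.29, 2.61 and 3.26, and it lay between 0 and 2.84 CPM in every cTR library. The other 6 were Asb2, Slc40a1, Itga4, Art2b, Gimap8 and Apol9a. Of the 11, 9 had a smaller log2 fold change in cTR than in Id3- eTR. The exceptions were Asb2 (-3.25, -2.63 and -3.02 in the same order) and Apol9a (2.08, 2.18 and 1.97). Slc40a1 was at -3.64, -8.32 and -8.83. In cTR neither Asb2 (edgeR adjusted p = 0.607) nor Slc40a1 (0.647) was called.

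**Figure D5:**
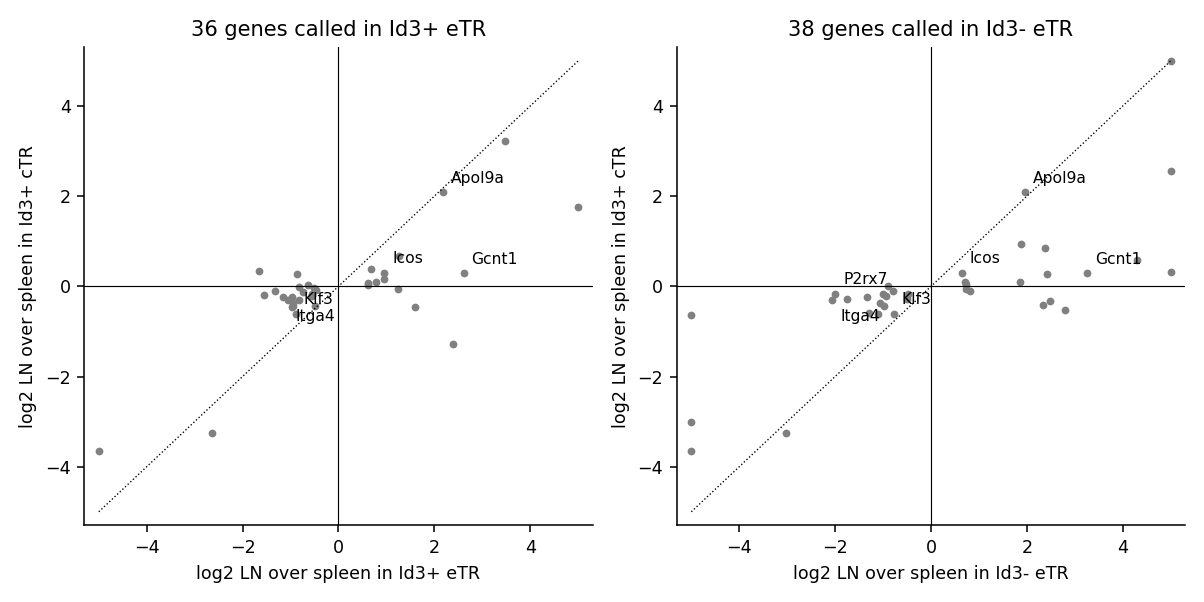
Log2 fold change of lymph node over spleen in Id3+ eTR (left, 36 genes called there) and Id3- eTR (right, 38 genes) against that of the same genes in Id3+ cTR. Values of 5 or more are drawn at 5, and the dotted line marks equal values. Most points lie nearer to the horizontal axis than the dotted line, and Apol9a lies close to it at 2.08 in cTR.

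The difference between differences was tested for every gene. Against Id3+ eTR, edgeR called 0 of 12445 genes (0%), with 1180 (9.48%) at an unadjusted p under 0.05. Limma-voom also called 0 there, and DESeq2 called 66 of 1105 (5.97%). Against Id3- eTR, edgeR called 3 genes (0.0241%), with 856 (6.88%) at an unadjusted p under 0.05.
For Itga4 the tissues differed by -0.30 on the log2 scale in cTR (SE 0.12), and among effector cells by -1.05 with the Id3 reporter and -2.06 without it. Its Id3- eTR levels were 183 ± 28.9 CPM in lymph node and 763 ± 57.3 CPM in spleen, beside 402 ± 8.93 and 493 ± 39.7 CPM in cTR. The difference from Id3- eTR was 1.76 (SE 0.17; edgeR adjusted p = 0.000109), and it was called in each alternative run, by edgeR, DESeq2 and limma-voom.
P2rx7, an ATP-gated channel known for triggering T cell death, was at 116, 128 and 103 CPM in lymph node cTR and 127, 152 and 110 CPM in spleen cTR. In Id3- eTR it was at 49.9 ± 16.7 CPM in lymph node and 199 ± 33.6 CPM in spleen, and the difference between the differences was 1.83 (SE 0.29; edgeR adjusted p = 0.0380).
Cdca7l, a nuclear protein known to bind Myc, was at 87.1, 60.2 and 78.8 CPM in lymph node cTR and 37.7, 32.4 and 29.0 CPM in spleen cTR. The groups did not overlap, with lymph node above as for 7.18% of all genes. The log2 fold change was 1.19 (SE 0.20; edgeR adjusted p = 0.0990). It passed only with the mouse as a block in the fit of 18 libraries, without lymph node mouse 86, and in DESeq2 without independent filtering. In the blocked fit of the 6 cTR libraries its adjusted p was 0.327 by edgeR. In Id3- eTR it was at 50.01 ± 9.35 CPM in lymph node and 72.4 ± 10.2 CPM in spleen, and the difference between the differences was 1.73 (SE 0.27; edgeR adjusted p = 0.0380).
The calls of P2rx7 and Cdca7l are not firm. Leaving out any of 10 of the 12 libraries compared ended the call of P2rx7 (edgeR adjusted p up to 0.158), and likewise for Cdca7l (up to 0.183). Limma-voom and thinned counts ended both calls too, and so did leaving out the 3 libraries that stand apart, with 1 spleen cTR library left.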

How the data were processed

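RNA of 18 libraries was measured, and the comparison uses 6 of them, grouped by the labels. Per the labels' protocols, CD4 cells were enriched with beads, sorted by flow cytometry into lysis buffer, and made into libraries with SMART-Seq v4 and a modified Nextera XT protocol. The authors deposited whole-number counts per gene, with no normalization. Tools in the submitters' processing notes are TopHat, Bowtie, HTSeq 0.4.1, SAMtools, Picard and FastQC. The genome build and strand setting are not given in the sources used here. The authors' normalized table was not used. Symbols came from GENCODE M21, and the 5072 identifiers without one held 0.891% of counts.

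Genes were kept with filterByExpr (minimum count 10), scaled by TMM, and fitted over 6 groups and all 18 libraries with edgeR 4.0.16 (robust quasi-likelihood F test, two-sided, 12 residual degrees of freedom) in R 4.3.3. Benjamini-Hochberg adjustment ran over the 12445 genes tested, with a call at an adjusted p under 0.05. The p-values rest on the spread between libraries of a group (3 mice each), estimated over all 6 groups together. That fit has no mouse term and treats libraries of the same mouse as independent. The biological coefficient of variation was 0.294. Log2 CPM used a prior count of 2. Totals were 1600782 to 2988373 counts with 13701 to 14302 genes detected in the 6 libraries, and log2 fold changes had a median standard error of 0.31. Sequence statistics used Python 3.11.15 and Biopython 1.88. The fit was also run on counts simulated at its own dispersions. These had no mouse effect and no abundance-dependent shift between libraries, so that run cannot speak to such effects.

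The mouse number pairs the libraries, since both came from the same animal. Deviations from the group means correlated at 0.041, 0.050 and 0.038 within mice 84, 86 and 87, and at -0.045 to 0.003 between different mice.

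The rule for naming genes took the sort genes, called genes outside the lists with the largest changes in 3 of 3 mice, up to 3 called members of each list or else 2 with the lowest p, and called interaction genes. Genes named for a role outside it (such as Ccr7, S1pr1, Klf2, Igfbp4, Il2ra, Ctla4, Irf7, Ifit1, Hspa1b, Apol9b), and the sequence comparison, were chosen after their values were seen. The values of some genes are not reported here. The members and gene lists were chosen with earlier results of these data known. Alternatives were RLE scaling, no filter, DESeq2 1.42.0, limma-voom 3.58.1, the mouse as a block, thinning to the smallest total, leaving out each library and the 3 that stand apart (spleen Id3+ cTR of mice 84 and 87, spleen Id3+ eTR of mouse 84), and a fit of the 6 libraries alone. An abundance-dependent scaling and DESeq2 without independent filtering were added after seeing the data.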

Additional observations from a re-analysis of the deposited data

Results flagged for a closer look

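The tissue difference in Id3+ cTR differed from that in Id3- eTR, by the test of the difference itself in edgeR, for 3 genes. The log2 difference between the differences was 1.76 for Itga4, 1.83 for P2rx7 and 1.73 for Cdca7l. For Itga4 and P2rx7 the tissue difference was the smaller in cTR (-0.30 beside -2.06, and -0.17 beside -1.998). For Cdca7l the signs were opposite (1.19 in cTR and -0.54 in Id3- eTR). The cause was not tested.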

How the results depend on the processing

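The count of genes called between the tissues, 1 in edgeR, was also 1 with RLE scaling, without a filter, with thinned counts, and without the 3 libraries that stand apart, where the gene was Cysltr2 and 1 spleen cTR library (mouse 86) is left, assumed to vary like the other groups. It was 0 by limma-voom, 2 with the replicate block of mouse numbers, 108 by DESeq2, 6 in the 6 libraries alone (4 hemoglobin genes, Apol9a and Skil) and 2 there with the block (Hbb-bs and Hbb-bt). Among alternatives added after seeing the data it was 2 with the abundance-dependent scaling (Apol9a and Rgs1) and 51 by DESeq2 without independent filtering. Leaving out single libraries gave 0 to 24. Against Id3+ eTR the count of 0 became 66 by DESeq2, 37 by DESeq2 without independent filtering, and 0 to 1 without single libraries. Against Id3- eTR the count of 3 became 47 by DESeq2 with and without that filtering, 1 by limma-voom, 1 with thinned counts, and 1 to 5 without single libraries. The block changed no other call. The excess of between-tissue over within-tissue distance ran from 0.0183 to 0.0548 over its alternatives. Signs turned for Id3, Foxp3, Cd4, Cst3, Cd38 and Cd8a. In the fit of all libraries these were at -0.04, -0.11, -0.19, -0.40, -0.58 and -2.34, so not all were near 0. Without single libraries Id3 ran from -0.0984 to 0.0323, above 0 without spleen mouse 84 or lymph node mouse 86, and Cd38 from -0.868 to 0.239, above 0 without spleen mouse 86. Without the 3 libraries, against the 1 spleen cTR library left, Id3 was at 0.0865, Foxp3 at 0.0128, Cd4 at 0.0577, Cst3 at 0.00832 and Cd8a at 2.34. The cause was not tested. Depth limits genes with a mean log2 CPM under 3, whose median standard error was 1.02.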

Other observations

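Genes of the activation difference between Id3- eTR and Id3+ eTR were not called by edgeR between the tissues in cTR. The 95 genes called higher in Id3- eTR in both tissues had a median log2 difference of 0 between lymph node and spleen cTR, and the 78 called lower -0.04. At an unadjusted p under 0.05, 9 of the 95 were higher in lymph node and 11 in spleen, and 1 and 4 of the 78, beside 3.32% and 4.45% of all genes tested.

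Several genes outside the lists, chosen after their values were seen, had groups that did not overlap and were not called by edgeR. Of all genes, 7.18% had every lymph node library above every spleen library, and 7.38% the reverse. Skil, an inhibitor of TGF-beta signalling, was at 315, 317 and 377 CPM in lymph node and 198, 180 and 176 CPM in spleen (log2 0.86, edgeR adjusted p = 0.166; DESeq2 0.000278). Sesn1, a stress-induced inhibitor of mTORC1, was at 265, 283 and 262 CPM in lymph node and 362, 405 and 426 CPM in spleen (log2 -0.56, edgeR adjusted p = 0.166; DESeq2 0.00102). Frmd4b was at 27.6, 33.4 and 33.4 CPM in lymph node and 10.4, 5.19 and 9.25 CPM in spleen. Cysltr2, a cysteinyl leukotriene receptor, was at 1.89, 1.32 and 1.07 CPM in lymph node and 5.85, 12 and 4.32 CPM in spleen.

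Transcripts of secreted salivary proteins, also chosen after their values were seen, appeared in some lymph node libraries. Bpifa2, the parotid secretory protein, was at 150, 0 and 32.0 CPM in lymph node cTR of mice 84, 86 and 87 and at 0 in spleen. Amy1, the salivary amylase, was at 43.5, 0 and 7.46 CPM in lymph node and 0, 0 and 0.617 CPM in spleen. Smr3a was at 17.0 CPM and Pip at 7.57 CPM in lymph node of mouse 84. None of these genes was called.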
